A study of Rattus norvegicus with 40 samples.

Results

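Mitochondrial ribosomal proteins are the proteins of the ribosome inside mitochondria, and their genes were followed in rat liver across 3 doses of GW7647, an agonist of the fatty acid-sensing nuclear receptor PPAR-alpha. The members are all genes whose symbol in the platform annotation starts with Mrpl or Mrps and then a digit. There were 76 such genes among 13438 genes measured, with 49 Mrpl symbols, which name large subunit proteins, and 27 Mrps symbols, which name small subunit proteins except that Mrps18a and Mrps30 sit in the large subunit in mammals. Counts below go by symbol. Their genes lie on 18 chromosomes. Each gene was read from 1 probe set, the one with the highest mean over all arrays, and 20 members had further probe sets.

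Adult male Sprague Dawley SD:CD rats were given GW7647 by gavage once a day for 4 days, at doses of 0.1, 1 and 10 mg/kg, or the vehicle alone, and liver was taken 24 h after the last dose. Each of the 4 groups held 10 rats, with 1 Affymetrix array per liver, so that 40 arrays were compared. All were adult males of this strain, and the RNA came from pieces of whole liver, in which hepatocytes and other liver cells are mixed. The labels name neither the vehicle's composition nor a batch.

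The mitochondrial ribosome reads the few messenger RNAs that mitochondrial DNA encodes, which in mammals are for subunits of the respiratory chain and ATP synthase. Its ribosomal RNAs are made inside the mitochondrion, but every one of its proteins is encoded in the nucleus, made in the cytosol and imported. Many of these proteins have counterparts in bacterial ribosomes and the others are found in mitochondria only. In liver, PPAR-alpha agonists are best known for switching on genes of peroxisomal and mitochondrial fatty acid oxidation. Signals are given on the log2 scale, on which equal differences stand for equal folds.

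Promoter sequence was set beside the expression values because the promoters of mitochondrial ribosomal protein genes are known, in human cells, for sites of the ETS-family factor GABP and of NRF1. RefSeq promoters (GRCr8 assembly, 250 bases before to 50 after the start of the gene) were matched for 62 of the 76 members. The 4 below are shown because Mrpl30, Mrps6 and Mrps18b had the largest changes at 10 mg/kg among the members and Mrps9 the lowest. Each runs 5′ to 3′ on the plus strand from 200 bases before to 20 bases after the start. Capitals mark exact matches, on either strand, to the GABP core CCGGAAG (reverse complement CTTCCGG) or to the palindromic NRF1 core GCGCATGCGC.
Mrpl30, chr9:47621027-47621246 (+): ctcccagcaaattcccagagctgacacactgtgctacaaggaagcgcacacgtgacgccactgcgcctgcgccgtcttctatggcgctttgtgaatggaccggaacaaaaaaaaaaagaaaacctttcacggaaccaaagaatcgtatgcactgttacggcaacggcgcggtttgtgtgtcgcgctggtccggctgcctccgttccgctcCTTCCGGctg
Mrps6, chr11:44778467-44778686 (+): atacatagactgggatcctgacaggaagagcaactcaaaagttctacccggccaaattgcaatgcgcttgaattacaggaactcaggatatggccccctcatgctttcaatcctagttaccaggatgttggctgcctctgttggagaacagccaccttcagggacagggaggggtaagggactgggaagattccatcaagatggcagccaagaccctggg
Mrps18b, chr20:2842806-2843025 (+): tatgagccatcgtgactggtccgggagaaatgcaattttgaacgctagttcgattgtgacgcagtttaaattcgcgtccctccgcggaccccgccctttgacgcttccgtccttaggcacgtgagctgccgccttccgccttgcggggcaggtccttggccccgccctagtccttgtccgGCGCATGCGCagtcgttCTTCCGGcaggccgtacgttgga
Mrps9, chr9:52605478-52605697 (+): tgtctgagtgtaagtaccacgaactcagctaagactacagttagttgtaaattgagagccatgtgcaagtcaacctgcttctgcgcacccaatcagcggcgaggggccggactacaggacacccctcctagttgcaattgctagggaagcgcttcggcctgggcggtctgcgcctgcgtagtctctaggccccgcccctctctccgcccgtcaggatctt

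Mrps18b held both cores close to its start and Mrpl30 held a GABP core just after its start, while neither core was found in the windows of Mrps6 and Mrps9. Among the 62 member promoters 20 held the GABP core (32.3%), against 11.2% of 19005 promoters of protein-coding genes and 21.5% of 4551 promoters of genes with a mean signal of log2 5 or more. The NRF1 core was in 4 member promoters (6.45%), against 1.14% and 2.37% in the same 2 sets. The YY1 core ATGGCGGC was in 13 of the 62, against 3.54% and 7.49%. This core opens with ATG, the letters of a start codon, and the windows run past the start of the gene. Whether its matches were the first codons of coding sequence was not tested, so they are not counted as YY1 sites. The GC box GGGCGG was in 48.4% of member promoters (43.1% and 64.4%), and TATAAA in 11.3% (13.1% and 6.94%). The direct repeat AGGNCANAGGNCA, the kind of element that PPAR-alpha binds with RXR, was in 0 member promoters, against 0.358% and 0.286%. Matches of different motifs shared bases in 1 member promoter, between the GABP core and a GC box. The GABP core was in 33.3% of the promoters of members that rose at 10 mg/kg and in 31.2% of the others, and the YY1 core in 16.7% and 25.0%. The median promoter of a member had 55.8% G and C and 18 CpG, against 55.3% and 12 over all protein-coding promoters and 60.7% and 22 over those of genes at log2 5 or more, so that members lay between these sets. Among the 4 promoters shown Mrps6 had 3 CpG in its 300 bases, where Mrpl30, Mrps18b and Mrps9 had 23, 28 and 17. Of the members not shown, Mrpl3 was close to it with 5. These matches are descriptions of sequence, with no test of binding.

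The arrays' own scale differed between dose groups, which bears on every count that follows. The median signal of an array was 2.47 ± 0.02 in vehicle livers, 2.47 ± 0.03 in livers given 0.1 mg/kg, 2.60 ± 0.02 in those given 1 mg/kg and 2.71 ± 0.01 in those given 10 mg/kg (SD, n = 10 each). Poly-A control RNAs added before labelling averaged 5.57, 5.84, 6.22 and 6.56 in the same order. In the 1 mg/kg group they lay between 5.25 and 5.70 on arrays 1 to 4 and between 6.34 and 7.39 on arrays 5 to 10. The values were therefore compared as deposited and again after quantile normalization of all 40 arrays, which gives every array the same distribution. The words rose and fell are kept for genes with a limma adjusted p under 0.05 and 1 direction on the 2 scales alike. Over all genes the median change at 10 mg/kg was log2 0.26 as deposited and -0.02 after quantile normalization. With this upward shift the rule is stricter for falls than the quantile-normalized scale alone. At 10 mg/kg 1033 genes were lower as deposited and 3274 after quantile normalization, and 1033 fell on both. Counts of 0 that fell are to be read beside the share of all genes. Replicates are separate rats. All 76 members had a mean signal of log2 5 or more, as had 5344 of the 13438 genes, so that set is given as a second background.

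The mean signal over the 76 members was higher at 1 and 10 mg/kg than in vehicle livers on the deposited scale. It was 7.74 ± 0.04 in vehicle livers, 7.74 ± 0.05 in livers given 0.1 mg/kg, 8.06 ± 0.12 in those given 1 mg/kg and 8.26 ± 0.10 in those given 10 mg/kg (SD, n = 10 each). After quantile normalization it was 7.87 ± 0.04, 7.90 ± 0.04, 7.95 ± 0.12 and 8.08 ± 0.08 in the same order. The 10 arrays of 10 mg/kg ran between 7.97 and 8.20 on that scale and the 10 vehicle arrays between 7.82 and 7.95, so that these groups did not overlap. The 1 mg/kg arrays ran between 7.73 and 8.10, across the whole vehicle range. The mean over all genes at log2 5 or more was 7.27 or 7.28 in every group after quantile normalization, which holds it nearly constant by design. As deposited that mean was 7.14, 7.11, 7.39 and 7.44 from vehicle to 10 mg/kg. The spread between livers was wider at 1 and 10 mg/kg than in the other groups on both scales.

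**Figure D1:**
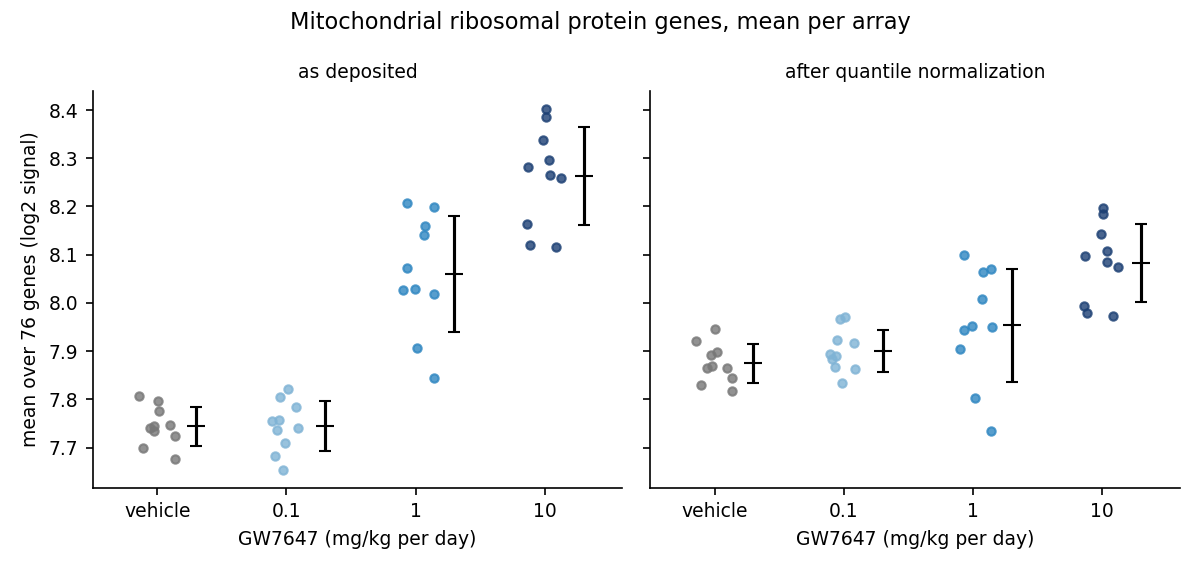
Mean log2 signal over the 76 mitochondrial ribosomal protein genes on each array, as deposited (left) and after quantile normalization (right), by daily dose of GW7647. Points are arrays and bars are the mean and SD of 10 arrays; after quantile normalization the 10 mg/kg arrays lie between 7.97 and 8.20 and the vehicle arrays between 7.82 and 7.95.

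At 10 mg/kg, 38 of the 76 members rose and 0 fell, where 20.4% of all genes and 24.8% of genes at log2 5 or more rose and 7.69% of all genes fell. The rises of these 38 were between 1.39-fold and 2.77-fold as deposited and between 1.12-fold and 2.23-fold after quantile normalization. A rise of 1.5-fold was reached by 21 of them as deposited and by 6 after quantile normalization. On the deposited scale alone 72 members were higher at 10 mg/kg, where 56.5% of all genes were, and after quantile normalization alone 38 were higher and 3 lower, where 20.4% of all genes were higher and 24.4% lower. The median change over the 76 members was log2 0.51 as deposited and 0.20 after quantile normalization, against 0.29 and -0.01 over genes at log2 5 or more. With 1 exception, Mrps9, every member's mean was higher at 10 mg/kg than in vehicle livers on the deposited scale, and 16 means were lower after quantile normalization. Of all genes 79.8% had a higher mean as deposited and 47.8% after quantile normalization. With the poly-A controls' mean minus the median of the array as a covariate, 38 members rose. The poly-A controls climbed with dose, so this fit cannot separate the 2 fully. No test was run over the members as a set.

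Among genes with Mrpl symbols 26 of 49 rose at 10 mg/kg (53.1%), with a median change of log2 0.52 as deposited and 0.22 after quantile normalization. Mrpl30, the counterpart of the bacterial large subunit protein L30, had the largest change of all members. Mrpl30 had a lowest, median and highest deposited signal of 6.42, 6.67 and 6.92 in vehicle livers, 6.32, 6.64 and 7.21 in livers given 0.1 mg/kg, 6.65, 7.34 and 7.95 in those given 1 mg/kg and 7.30, 8.15 and 8.90 in those given 10 mg/kg. The vehicle and 10 mg/kg arrays did not overlap, and those of 1 mg/kg spanned the gap between them. At 10 mg/kg against vehicle its change was log2 1.47 ± 0.14 (SE, 2.77-fold, adjusted p = 1.73e-11) as deposited and log2 1.15 ± 0.14 (2.23-fold, adjusted p = 4.74e-09) after quantile normalization. One 10 mg/kg array, at 7.14 after quantile normalization, lay far below the rest of its group and only just above the highest vehicle array at 7.05.

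Mrpl49, a protein of the large subunit that bacteria lack, was next in size. Mrpl49 had a lowest, median and highest deposited signal of 5.53, 5.87 and 6.05 in vehicle livers, 5.49, 5.79 and 6.07 in livers given 0.1 mg/kg, 5.85, 6.32 and 6.84 in those given 1 mg/kg and 6.46, 6.84 and 7.13 in those given 10 mg/kg. Its 10 mg/kg arrays lay above all vehicle arrays on both scales, and the change was log2 1.00 ± 0.10 (SE, 1.99-fold, adjusted p = 3.28e-11) as deposited and log2 0.68 ± 0.09 (1.61-fold, adjusted p = 4.09e-08) after quantile normalization. The second probe set of Mrpl49 rose as well, by log2 0.90 after quantile normalization. Mrpl14, the counterpart of bacterial L14 at the face that meets the small subunit, had 8.72, 9.02 and 9.33 at 10 mg/kg against 7.68, 8.11 and 8.39 in vehicle livers as its lowest, median and highest deposited signal. These ranges did not overlap as deposited but did after quantile normalization, where the lowest 10 mg/kg array was at 8.56 and the highest vehicle array at 8.57. Its change was log2 0.96 as deposited and 0.65 after quantile normalization.

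Mrpl16 and Mrpl12 followed in size. Mrpl16 had a lowest, median and highest deposited signal of 7.95, 8.17 and 8.26 in vehicle livers, 8.07, 8.20 and 8.36 in livers given 0.1 mg/kg, 8.57, 8.75 and 8.89 in those given 1 mg/kg and 8.92, 9.03 and 9.20 in those given 10 mg/kg. For this gene, whose bacterial counterpart L16 lies near the catalytic centre, the groups of 1 and of 10 mg/kg each lay above all vehicle arrays on both scales, and no other member did so at 1 mg/kg after quantile normalization. The change of Mrpl16 at 10 mg/kg was log2 0.91 ± 0.05 (SE, 1.88-fold, adjusted p = 2.31e-18) as deposited and log2 0.59 ± 0.05 (1.5-fold, adjusted p = 3.39e-12) after quantile normalization. Mrpl12 forms the stalk that recruits translation factors to the large subunit. Mrpl12 had a lowest, median and highest deposited signal of 8.84, 8.99 and 9.22 in vehicle livers, 8.97, 9.05 and 9.17 in livers given 0.1 mg/kg, 9.23, 9.43 and 9.59 in those given 1 mg/kg and 9.77, 9.87 and 10.04 in those given 10 mg/kg. Its 10 mg/kg arrays lay above the arrays of all other groups, on both scales. The change of Mrpl12 was log2 0.87 ± 0.05 (SE, 1.83-fold, adjusted p = 1.42e-17) as deposited and log2 0.58 ± 0.05 (1.49-fold, adjusted p = 5.29e-12) after quantile normalization, and its 2 other probe sets, both dim, gave log2 0.33 and 0.52 as deposited and 0.06 and 0.29 after quantile normalization.

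Mrpl45, which anchors the ribosome to the inner membrane beside the exit of the nascent chain, and Mrpl48, found in mitochondria only, rose to a like degree. The lowest, median and highest deposited signal of Mrpl45 was 7.20, 7.45 and 7.83 at 10 mg/kg against 6.42, 6.65 and 6.90 in vehicle livers. That of Mrpl48 was 7.96, 8.19 and 8.44 at 10 mg/kg against 7.11, 7.42 and 7.58 in vehicle livers. Neither gene's groups overlapped, on this scale or after quantile normalization. The change was log2 0.85 as deposited and 0.53 after quantile normalization for Mrpl45 and log2 0.82 as deposited and 0.50 after quantile normalization for Mrpl48. A second, dimmer probe set annotated to Mrpl48 ran the other way: it averaged 3.63 ± 0.22 at 10 mg/kg and 3.84 ± 0.30 in vehicle livers (SD, n = 10 each), and at 1 mg/kg its change was log2 -0.52 as deposited (adjusted p = 0.000179) and -0.73 after quantile normalization. The rise of Mrpl48 therefore holds for its brighter probe set alone. Mrpl39 rose by log2 0.78 as deposited and 0.46 after quantile normalization at 10 mg/kg, with groups that overlapped only after quantile normalization.

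Some large subunit genes that carry known disease variants or lie at functional sites in the human ribosome were followed whatever their values. Mrpl3, beside the catalytic centre, had 8.13, 8.41 and 8.53 at 10 mg/kg against 7.99, 8.17 and 8.36 in vehicle livers as its lowest, median and highest quantile-normalized signal. The ranges overlapped, and the change passed on both scales at log2 0.51 as deposited and 0.19 after quantile normalization (adjusted p = 0.0204 on the quantile-normalized scale). Mrpl11, at the base of the stalk, had a change of log2 0.44 as deposited and 0.13 after quantile normalization and did not pass on the second scale (adjusted p = 0.12). Mrpl44, which binds ribosomal RNA through a fold related to RNase III, came to log2 0.52 as deposited and 0.20 after quantile normalization (adjusted p = 0.0604 on the second). Mrpl28 had log2 0.28 as deposited, about the shift of all bright genes, and -0.03 after quantile normalization. Mrpl58, a peptidyl-tRNA hydrolase that frees stalled chains, was not among those genes and was named because it rose from 1 to 10 mg/kg. Against vehicle Mrpl58 rose by log2 0.64 as deposited and 0.32 after quantile normalization. The remaining 16 large subunit genes that rose are Mrpl15, Mrpl17, Mrpl18, Mrpl19, Mrpl21, Mrpl22, Mrpl23, Mrpl24, Mrpl33, Mrpl34, Mrpl40, Mrpl43, Mrpl50, Mrpl52, Mrpl53 and Mrpl55.

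Among genes with Mrps symbols 12 of 27 rose at 10 mg/kg (44.4%), with a median change of log2 0.47 as deposited and 0.18 after quantile normalization. Mrps6, the counterpart of bacterial S6, had the largest change. Mrps6 had a lowest, median and highest deposited signal of 5.95, 6.29 and 6.57 in vehicle livers, 5.95, 6.28 and 6.54 in livers given 0.1 mg/kg, 6.79, 7.12 and 7.57 in those given 1 mg/kg and 7.14, 7.52 and 7.72 in those given 10 mg/kg. The arrays of 1 and of 10 mg/kg all lay above the vehicle arrays as deposited. Its change at 10 mg/kg was log2 1.23 ± 0.09 (SE, 2.34-fold, adjusted p = 2.15e-14) as deposited and log2 0.92 ± 0.09 (1.89-fold, adjusted p = 5.58e-11) after quantile normalization, and at 1 mg/kg log2 0.85 as deposited and 0.60 after quantile normalization. Mrps6 overlaps Slc5a3, a myo-inositol transporter gene, in the RefSeq annotation, and Slc5a3 had log2 0.47 as deposited and 0.21 after quantile normalization at 10 mg/kg (adjusted p = 0.0924 on the second scale).

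Mrps18b is 1 of 3 mitochondrial relatives of bacterial S18. Mrps18b had a lowest, median and highest deposited signal of 7.58, 7.90 and 8.50 in vehicle livers, 7.61, 8.13 and 8.39 in livers given 0.1 mg/kg, 8.23, 8.59 and 8.79 in those given 1 mg/kg and 8.85, 9.02 and 9.25 in those given 10 mg/kg. All 10 mg/kg arrays lay above those of the other groups. The change was log2 1.13 ± 0.09 (SE, 2.19-fold, adjusted p = 1.72e-13) as deposited and log2 0.82 ± 0.09 (1.76-fold, adjusted p = 1.24e-09) after quantile normalization. Vehicle array 1, at 8.50, was the only one of its group above 8.02. Its relative Mrps18c rose by log2 0.71 as deposited and 0.40 after quantile normalization, while Mrps18a, which in mammals sits in the large subunit, had log2 0.26 as deposited and -0.07 after quantile normalization and did not pass.

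Mrps34 and Mrps7 were the next in size among small subunit genes. Mrps34, found in mitochondria only and needed in mice for a stable small subunit, had 9.50, 9.66 and 9.87 at 10 mg/kg against 8.94, 9.19 and 9.44 in vehicle livers after quantile normalization. Mrps7, the counterpart of the bacterial assembly protein S7, had 8.79, 8.87 and 9.01 at 10 mg/kg against 8.24, 8.46 and 8.65 in vehicle livers on that scale. The groups of both genes stood clear of each other. The change was log2 0.79 as deposited and 0.50 after quantile normalization for Mrps34 and log2 0.76 as deposited and 0.44 after quantile normalization for Mrps7. Mrps16 changed less but evenly, by log2 0.49 ± 0.04 as deposited and 0.18 ± 0.04 after quantile normalization (SE, adjusted p = 0.000822 on the second scale). Mrps12, of the decoding centre, rose by log2 0.47 as deposited and 0.16 after quantile normalization, and Mrps2 by log2 0.58 as deposited and 0.26 after quantile normalization. Mrps22, found in mitochondria only, had log2 0.51 as deposited and 0.22 after quantile normalization and did not pass on the second scale (adjusted p = 0.113). Its other probe set, dim at 1.81 in vehicle livers, did rise, by log2 0.56 as deposited and 0.30 after quantile normalization. Mrps5, Mrps14, Mrps28 and Mrps33 also rose.

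At the other end of the order, 3 members passed the test as lower at 10 mg/kg after quantile normalization, and 0 did as deposited. They were named after their values were seen. Mrps9, the counterpart of bacterial S9, spread widely in treated livers. Mrps9 had a lowest, median and highest quantile-normalized signal of 7.59, 7.93 and 8.23 in vehicle livers, 7.88, 8.05 and 8.22 in livers given 0.1 mg/kg, 6.59, 7.76 and 8.09 in those given 1 mg/kg and 6.92, 7.70 and 8.03 in those given 10 mg/kg. The 1 and 10 mg/kg groups overlapped the others and reached well below them. The change of Mrps9 at 10 mg/kg was log2 -0.04 as deposited and -0.36 after quantile normalization (adjusted p = 0.818 and 0.0319 in the same order), and its second probe set gave 0.35 and 0.03. Mrps17, the counterpart of bacterial S17, was higher as deposited at log2 0.10 (adjusted p = 0.042) and lower after quantile normalization at -0.22 (adjusted p = 4.2e-05), so that its direction depended on the scale. Mrpl46 came to log2 0.08 as deposited and -0.24 after quantile normalization (adjusted p = 0.0348 on the second).

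**Figure D2:**
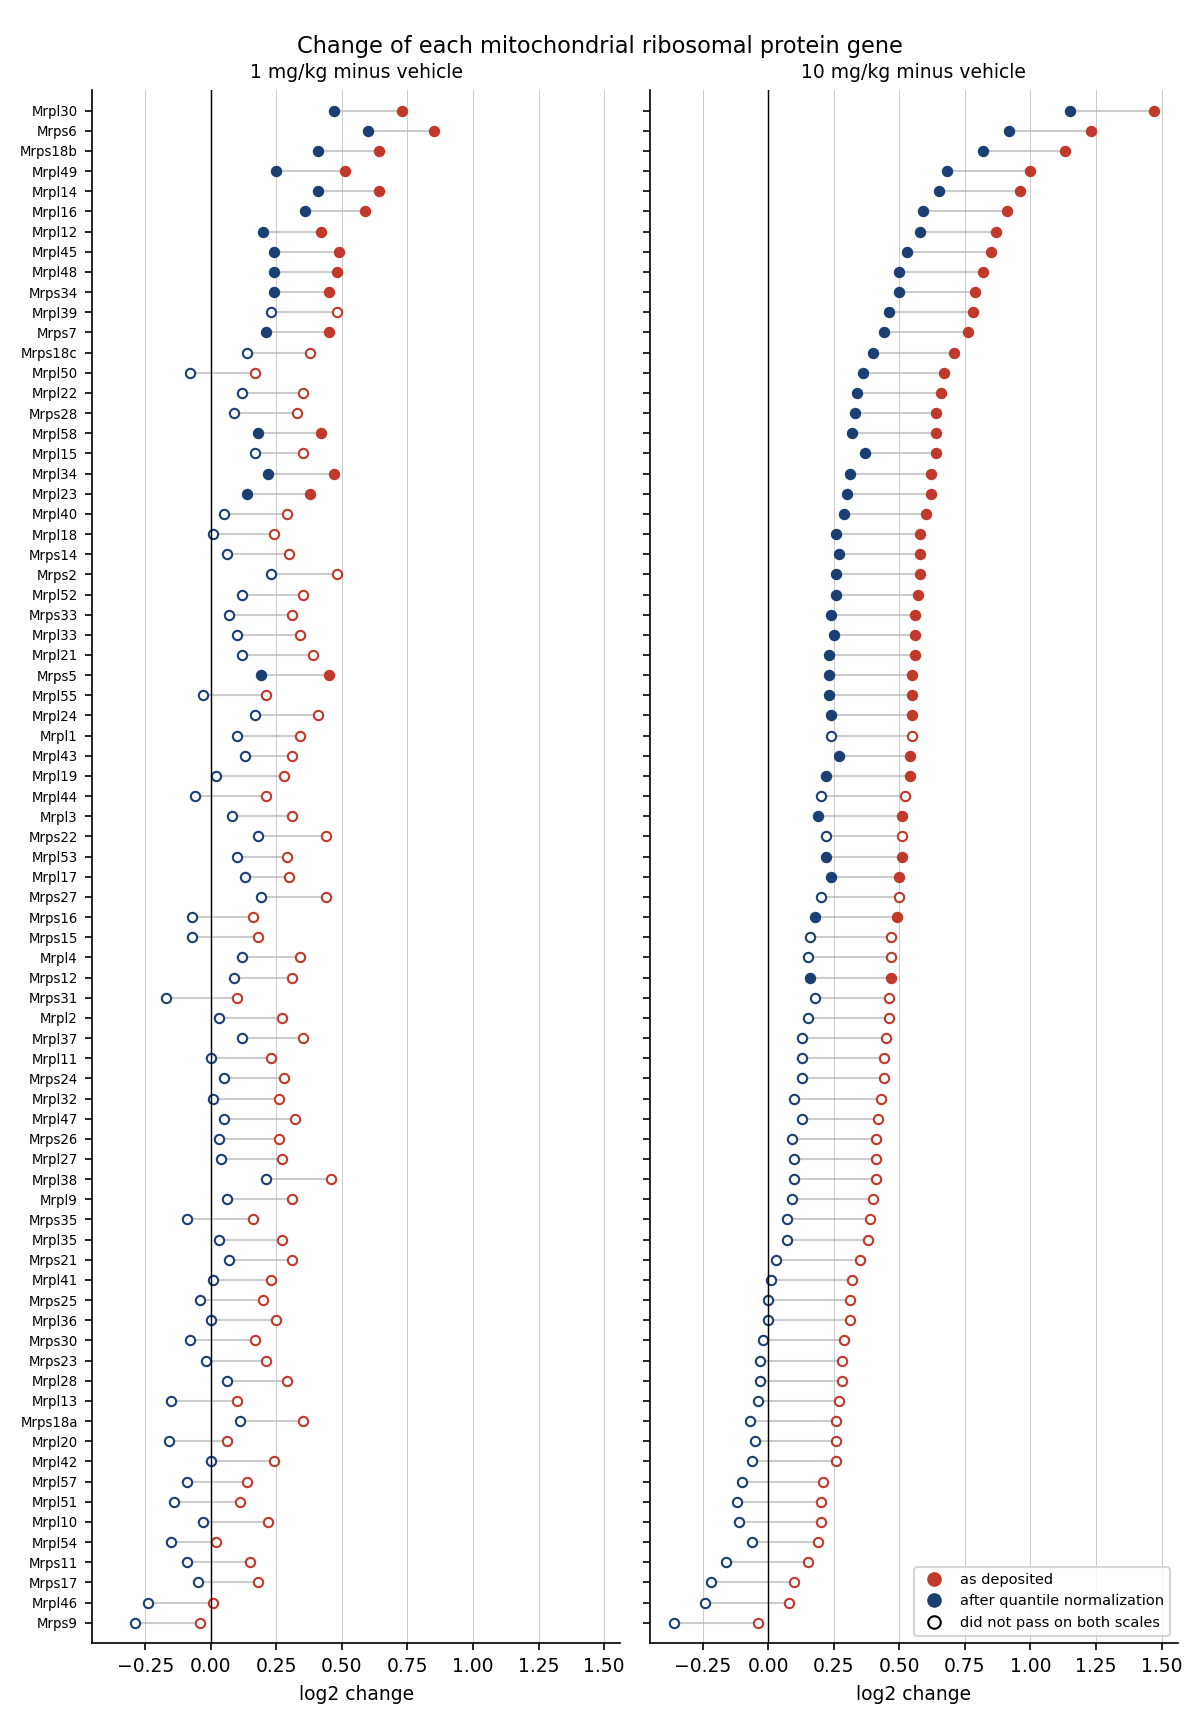
Log2 change of each of the 76 genes at 1 mg/kg (left) and 10 mg/kg (right) minus vehicle, as deposited (red) and after quantile normalization (blue), in order of the deposited change at 10 mg/kg. Filled points passed in the same direction on both scales; Mrpl30 leads at 10 mg/kg with log2 1.47 and 1.15, and Mrps9 is last with -0.04 and -0.36.

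Members were also counted by whether the arrays of the groups overlapped, with no model. At 10 mg/kg all 10 arrays lay above all 10 vehicle arrays for 37 members as deposited, where 13.0% of all genes did so, and for 10 members after quantile normalization, where 3.63% did. Of the 37, 32 rose on both scales and 5 did not. The 10 were Mrpl12, Mrpl16, Mrpl30, Mrpl45, Mrpl48, Mrpl49, Mrps6, Mrps7, Mrps18b and Mrps34. For 0 members did all 10 mg/kg arrays lie below the vehicle arrays on either scale, where 0.945% of genes did as deposited and 3.79% after quantile normalization. By symbol number, a rough guide to a bacterial counterpart, 24 of 43 members with low numbers rose at 10 mg/kg, and 14 of the other 33. Low means up to 36 for Mrpl and up to 21 for Mrps symbols. Some members with higher numbers may have bacterial counterparts too, so this is not a count by origin. No test of the difference between Mrpl and Mrps symbols or between these number classes was run.

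**Figure D3:**
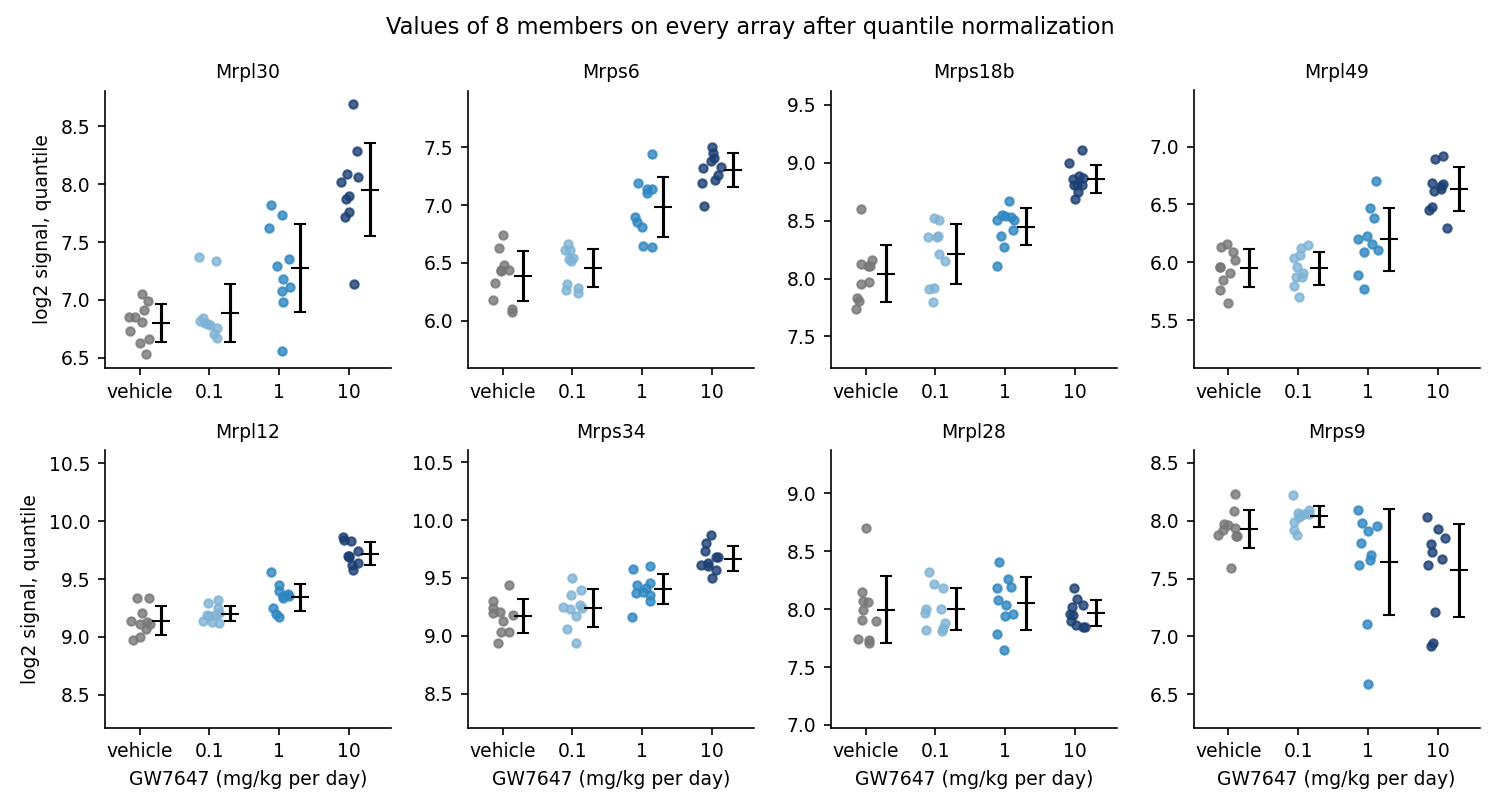
Log2 signal after quantile normalization of 8 members on each of the 40 arrays, by daily dose of GW7647. Points are arrays and bars are the mean and SD of 10 arrays; for Mrpl30, Mrps6, Mrps18b, Mrpl49, Mrpl12 and Mrps34 the 10 mg/kg arrays all lie above the vehicle arrays, and for Mrpl28 and Mrps9 they overlap. The signal axes differ in their limits.

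At 1 mg/kg, 15 members rose and 0 fell, a share of 19.7% where 11.1% of all genes and 12.6% of genes at log2 5 or more rose and 3.37% of all genes fell. The 15 were Mrpl12, Mrpl14, Mrpl16, Mrpl23, Mrpl30, Mrpl34, Mrpl45, Mrpl48, Mrpl49, Mrpl58, Mrps5, Mrps6, Mrps7, Mrps18b and Mrps34, and all of them rose at 10 mg/kg too. The largest changes against vehicle were those of Mrps6 at log2 0.85 as deposited and 0.60 after quantile normalization, Mrpl30 at log2 0.73 as deposited and 0.47 after quantile normalization and Mrpl14 at log2 0.64 as deposited and 0.41 after quantile normalization. Mrps18b had log2 0.64 as deposited and 0.41 after quantile normalization, Mrpl16 log2 0.59 as deposited and 0.36 after quantile normalization and Mrpl49 log2 0.51 as deposited and 0.25 after quantile normalization. The median over the 76 members was log2 0.31 as deposited and 0.07 after quantile normalization, against 0.24 and -0.01 over genes at log2 5 or more. As deposited alone 60 members were higher at 1 mg/kg, where 38.2% of all genes were. With arrays 1 to 4 of the 1 mg/kg group only, those with low poly-A controls, 14 members rose. All 1 mg/kg arrays lay above all vehicle arrays for 5 members as deposited, Mrpl12, Mrpl16, Mrpl58, Mrps5 and Mrps6, where 4.69% of genes did so, and for Mrpl16 after quantile normalization, where 1.3% did.

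At 0.1 mg/kg, 0 members rose and 0 fell by limma, where 0.0819% of all genes rose and 0.00744% fell. At an unadjusted p under 0.05 there was 1 member as deposited and there were 2 after quantile normalization, where 4.37% and 4.08% of all genes were. The changes against vehicle ran between log2 -0.14 and 0.15 as deposited. At the same dose 8 of 16 PPAR-alpha response genes rose, among them Acot2, Cyp4a1 and Ehhadh of fatty acid metabolism. The median change was log2 0.40 as deposited and 0.39 after quantile normalization for those 16 genes, against 0.00 and 0.02 for the members.

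Between neighbouring doses, 22 members rose at 10 mg/kg against 1 mg/kg and 0 fell, where 8.55% of all genes rose and 5.98% fell. Mrpl30 had log2 0.75 as deposited and 0.68 after quantile normalization in this comparison, Mrpl50 log2 0.50 as deposited and 0.43 after quantile normalization, Mrps18b log2 0.49 as deposited and 0.41 after quantile normalization, Mrpl49 log2 0.49 as deposited and 0.43 after quantile normalization and Mrpl12 log2 0.46 as deposited and 0.38 after quantile normalization. Of the 22, 19 also rose at 10 mg/kg against vehicle, and Mrpl44, Mrps15 and Mrps31 did not. After quantile normalization all 10 mg/kg arrays lay above all 1 mg/kg arrays for Mrpl12, Mrps16 and Mrps18b, where 0.93% of genes did so, and below them for Mrps17, where 0.759% did. At 1 mg/kg against 0.1 mg/kg, 11 members rose (14.5%) and 0 fell, where 10.5% of all genes rose and 2.95% fell. Of genes at log2 5 or more 9.88% rose, so the members' share was only a little higher. The 11 were Mrpl12, Mrpl14, Mrpl16, Mrpl23, Mrpl30, Mrpl34, Mrpl45, Mrpl48, Mrpl49, Mrps6 and Mrps7. Without array 9 of 0.1 mg/kg, or without array 5 of 1 mg/kg, 7 rose. Leaving out some 1 array ended the call of 6 of these 11, namely Mrpl12, Mrpl14, Mrpl30, Mrpl45, Mrpl48 and Mrpl49, and of 5 of the 22 of the upper step, namely Mrpl18, Mrpl40, Mrpl44, Mrpl58 and Mrps14. As deposited alone 43 members were higher at 10 against 1 mg/kg, where 24.2% of all genes were, and 62 at 1 against 0.1 mg/kg, where 45.4% were. After quantile normalization alone 1 was lower at 10 against 1 mg/kg, where 9.74% of all genes were, and 2 at 1 against 0.1 mg/kg, where 11.4% were. There were 9 members that rose in both steps. The steps and the comparisons with vehicle share arrays and are not independent of each other.

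Further probe sets gave a second reading for some members. Of 26 such probe sets 17 were dim, with a mean under log2 5. At 10 mg/kg 22 of the 26 had a mean above that of vehicle as deposited, 6 rose on both scales and 0 fell. Over all genes 79.8% had a higher mean as deposited and 20.4% rose, shares near those of the probe sets. For Mrpl52 the chosen probe set had log2 0.57 as deposited and 0.26 after quantile normalization, and the other had -0.04 and -0.35. In the RefSeq annotation 20 members overlap another gene, and 12 of these rose at 10 mg/kg. Of those 12, 10 overlap a gene that was measured, and in 2 cases, Gemin5 beside Mrpl22 and Syvn1 beside Mrpl49, that gene rose as well. The probes' positions were not used here, so signal from the overlapping gene was not tested.

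Genes that serve the same ribosome were counted next, where 20.4% of all genes rose and 7.69% fell at 10 mg/kg. Of 5 ribosome proteins with other symbols, Gadd45gip1 alone rose, to 9.03 ± 0.10 at 10 mg/kg, against 8.40 ± 0.16 in vehicle livers as deposited (SD, n = 10 each). Chchd1, Aurkaip1, Dap3 and Ptcd3 had log2 0.46, 0.41, 0.21 and 0.11 as deposited and 0.14, 0.08, -0.11 and -0.20 after quantile normalization. Among 22 assembly factors 9 rose and 1 fell at 10 mg/kg, with a median of log2 0.41 as deposited and 0.17 after quantile normalization. Mterf4, which acts with the methyltransferase Nsun4 in large subunit assembly, rose by log2 1.12 as deposited and 0.81 after quantile normalization. Noa1, a GTPase of small subunit assembly, rose by 0.77 as deposited and 0.53 after quantile normalization, the RNA helicase Ddx28 by 0.70 as deposited and 0.43 after quantile normalization and the pseudouridine synthase Trub2 by 0.64 as deposited and 0.32 after quantile normalization. Rbfa, a maturation factor of the small subunit, fell by log2 0.45 as deposited and by 0.77 after quantile normalization, to 7.36 ± 0.09 at 10 mg/kg, against 7.82 ± 0.23 in vehicle livers as deposited.

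Of 13 translation factors and messenger RNA-binding proteins 3 rose (23.1%), near the 20.4% of all genes and 24.8% of genes at log2 5 or more. Their median was log2 0.41 as deposited and 0.14 after quantile normalization. Lrpprc, which stabilises mitochondrial messenger RNAs, had 8.78 ± 0.23 at 10 mg/kg, against 7.59 ± 0.12 in vehicle livers as deposited, a rise of log2 1.19 as deposited and 0.87 after quantile normalization. Its partner Slirp rose by 0.60 as deposited and 0.30 after quantile normalization and the elongation factor Tufm by 0.59 as deposited and 0.27 after quantile normalization. The elongation factor Gfm1 had log2 0.48 as deposited and 0.16 after quantile normalization and did not pass on the second scale. Of 16 genes that charge mitochondrial transfer RNAs 8 rose and 0 fell, with a median of log2 0.61 and 0.35. Vars2 rose by 1.01 as deposited and 0.74 after quantile normalization, Yars2 by 0.92 as deposited and 0.61 after quantile normalization, Ears2 by 0.86 as deposited and 0.55 after quantile normalization, and Wars2 by 1.11 as deposited and 0.89 after quantile normalization. Wars2 lay near the floor in vehicle livers at 2.64 ± 0.18.

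Of 19 genes of mitochondrial DNA transcription and replication and its regulators 8 rose and 1 fell at 10 mg/kg. Over all genes 20.4% rose and 7.69% fell. The median of the 19 was log2 0.41 as deposited and 0.10 after quantile normalization. Polg, the mitochondrial DNA polymerase, had 8.95 ± 0.19 at 10 mg/kg, against 7.87 ± 0.15 in vehicle livers as deposited, a rise of log2 1.09 as deposited and 0.77 after quantile normalization. Gabpa, the DNA-binding subunit of GABP, rose by 1.00 as deposited and 0.75 after quantile normalization, and a link to the promoter matches was not tested. The coactivator Ppargc1b rose by 1.15 as deposited and 0.90 after quantile normalization and Mterf2 by 0.95 as deposited and 0.72 after quantile normalization. These 3 genes were dim, with vehicle means of 3.97, 3.56 and 2.53. Polg2, the accessory subunit of the polymerase, fell by log2 0.48 as deposited and by 0.80 after quantile normalization. Nrf1 had log2 0.08 as deposited and -0.16 after quantile normalization at 10 mg/kg and did not pass, and at 1 mg/kg it fell by 0.36 as deposited and by 0.50 after quantile normalization.

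Larger families set the members' counts in context, where 20.4% of all genes rose at 10 mg/kg and 11.1% at 1 mg/kg. Subunits of the respiratory chain and ATP synthase, 76 genes by symbol, rose in 45 cases at 10 mg/kg (59.2%) and in 25 at 1 mg/kg (32.9%), with 0 that fell at either dose. Their median at 10 mg/kg was log2 0.46 as deposited and 0.19 after quantile normalization, against 0.51 and 0.20 for the mitochondrial ribosomal proteins. Of 40 cytosolic ribosomal protein genes 13 rose at 10 mg/kg (32.5%) and 0 fell, with a median of log2 0.36 and 0.09. At 1 mg/kg 3 of the 40 rose, Rpl18, Rpl23a and Rpl35a, which were named after their values were seen. All 16 PPAR-alpha response genes rose at 1 and at 10 mg/kg, with medians of log2 2.55 and 3.07 as deposited, far beyond any member. Both families were taken by symbol with no filter on signal, whereas all members lay at log2 5 or more. By symbol they also take in Cox6c-ps1, Atp5if1, Rpl3l and Rps4y2, which may not be subunits in liver. No test of the difference between these lists was run.

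**Figure D4:**
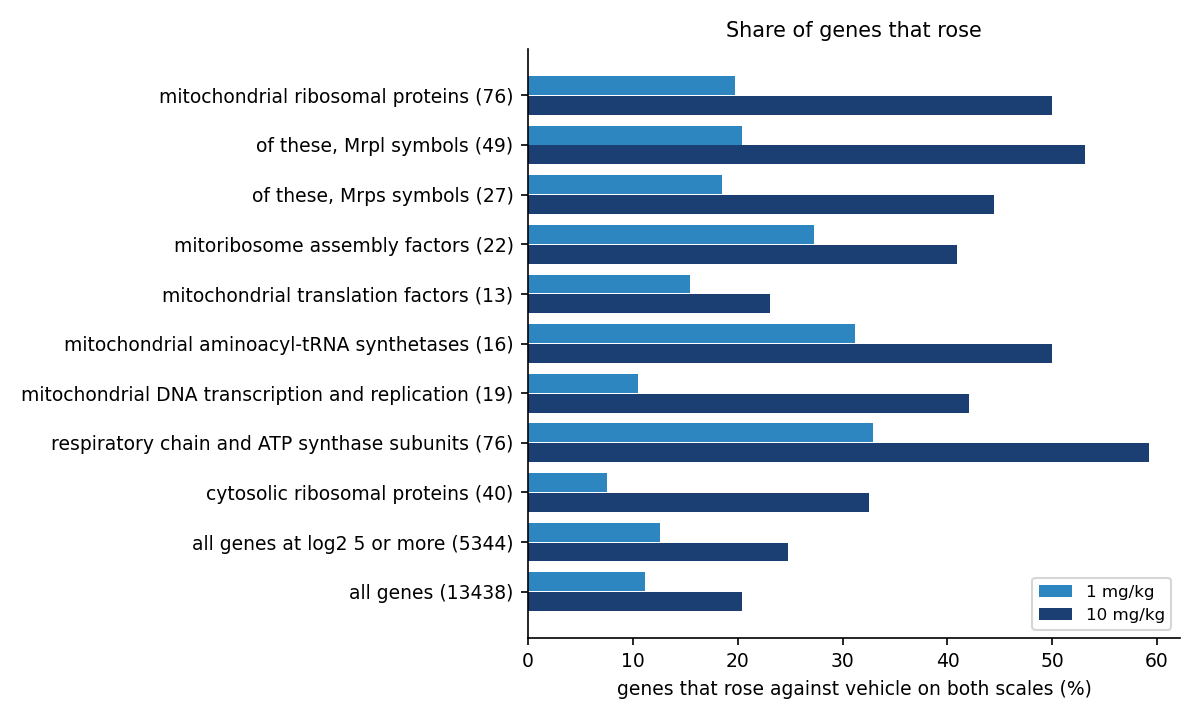
Share of genes in each list that rose against vehicle on both scales at 1 mg/kg (light bars) and 10 mg/kg (dark bars), with the number of genes measured in brackets. Of the mitochondrial ribosomal proteins 15 and 38 of 76 rose at these doses, and of all genes 11.1% and 20.4%.

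The labelled tissue was borne out by hepatocyte markers, whose mean over 9 genes ran between 11.67 and 11.97 at 10 mg/kg and between 11.82 and 12.04 in vehicle livers, on the deposited scale. Of these 9, Apoa2, Serpina1, Hnf4a and Cps1 fell at 10 mg/kg and 0 rose. Of 9 Kupffer cell and macrophage markers 8 fell at 10 mg/kg, among them Clec4f, to 9.28 ± 0.34 at 10 mg/kg, against 10.14 ± 0.27 in vehicle livers, and Cd163, to 3.53 ± 0.24 at 10 mg/kg, against 4.56 ± 0.29 in vehicle livers (SD, n = 10 each). Their mean ran between 6.04 and 7.16 at 10 mg/kg and between 6.84 and 7.65 in vehicle livers, and 4 of the 9 fell at 1 mg/kg. Over all genes 7.69% fell at 10 mg/kg and 3.37% at 1 mg/kg. In these bulk samples fewer cells of a type and less RNA per cell cannot be told apart. Among 7 endothelial markers Kdr and Tek fell, among 9 stellate cell markers Col1a1 rose and Des fell, and among 5 cholangiocyte markers Epcam and Sox9 rose and Spp1 fell. Markers of lymphocytes and erythroid cells averaged 2.57 ± 0.07 at 10 mg/kg and 2.38 ± 0.14 in vehicle livers, close to the median of the arrays, and Alas2 alone of 7 rose. The part of these shifts in the members' result was not tested.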

How the data were processed

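Each of 40 rat livers was measured on 1 array, and the labels give the groups. What the authors deposited is 1 log2 signal per probe set and array. The submitters' processing notes name GCRMA and Partek and no versions. GCRMA corrects for background by probe sequence, so that dim probe sets sit near a floor and their folds depend on that correction. The deposited log2 values were used with no pseudocount. Arrays have no read depth, so precision rests on how many there are.

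Platform annotation gave 1 gene symbol to 19069 of 31139 probe sets, several to 572, which then named none, and 11498 were unnamed here. Keeping for every gene its brightest probe set on average gave 13438 genes. The members all matched the RefSeq table of the GRCr8 assembly by Entrez number, and 3 symbols in lower case in the platform annotation were counted. The 4 groups entered 1 linear model, and the comparisons were its contrasts (limma 3.58.1 with lmFit and eBayes, R 4.3.3; the residual degrees of freedom were 36). Tests were two-sided, with Benjamini-Hochberg adjustment over all genes and a threshold of 0.05, run as deposited and after quantile normalization. The fit was tested on simulated data. Figures were drawn with Python 3.11.15 and matplotlib 3.10.9.

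The members and the gene lists were chosen with earlier results of these data known. By rule the text names the 12 largest rises and falls at 10 mg/kg among members that passed on both scales, the 6 of 1 mg/kg, members that passed at 0.1 mg/kg or between neighbouring doses, a member whose probe sets went in opposite directions, 11 genes whatever their values, and up to 4 genes of each list that changed most at the highest dose. Other genes were named after their values were seen. Alternatives were other scalings, choices of probe set, filters, priors, array weights, a covariate, a test against 1.2-fold and left-out arrays. Same-numbered arrays of different groups were not treated as pairs.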

Additional observations from a re-analysis of the deposited data

Results flagged for a closer look

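In 11 of 128 sets of 10 arrays examined (31 members named by the rule and the mean over all members, 4 groups each), 1 array lay apart from the others of its group by Dixon's test. Chance gives about 1 in 20 sets. All values are deposited log2 signals. Vehicle array 1 was the highest of its group for Mrps18b at 8.50 (others 7.58 to 8.02), Mrpl28 at 8.57 (7.59 to 7.98), Mrpl23 at 8.83 (8.45 to 8.63), Mrpl34 at 7.59 (7.11 to 7.32) and Mrps12 at 9.33 (8.76 to 9.04), and the lowest for Mrpl39 at 6.37 (6.71 to 7.10). The same array had the highest poly-A controls of the vehicle group, at 6.50. Array 8 of 0.1 mg/kg was the lowest of its group for Mrpl39 at 6.29 (6.68 to 7.03), Mrpl18 at 7.26 (7.72 to 8.13) and Mrps22 at 4.48 (5.29 to 5.90), and it is 1 of 2 arrays, with array 9, that had the lowest upper quartiles of all 40. Vehicle array 2 was the lowest for Mrpl44 at 6.19 (6.39 to 6.62). Array 9 of 1 mg/kg was the lowest for Mrps2 at 6.52 (others up to 7.26). Leaving out that array changed a call: on the quantile-normalized scale Mrps2 at 1 mg/kg against vehicle had log2 0.23 (adjusted p = 0.0538) with it and 0.29 (adjusted p = 0.00681) without it. For the other 10, leaving out the array changed no call of the gene against vehicle on either scale. The part of the poly-A level or of the low upper quartile in these values was not tested.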

How the results depend on the processing

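Scale, scaling controls and a minimum fold all moved the counts. As deposited alone, 60 members were higher at 1 mg/kg and 72 at 10 mg/kg against vehicle, 62 at 1 against 0.1 mg/kg and 43 at 10 against 1 mg/kg. After quantile normalization alone 3 were lower at 10 mg/kg against vehicle, 2 at 1 against 0.1 mg/kg (Mrps9 and Mrps31) and 1 at 10 against 1 mg/kg (Mrps17). With array medians shifted to 1 value in place of quantile normalization 37 rose at 1 mg/kg and 33 at 1 against 0.1 mg/kg, and with scaling to the 18 hybridisation controls 4 rose at 10 against 1 mg/kg. Array weights gave 18 at 1 against 0.1 mg/kg. In a test against a change of 1.2-fold 11 rose at 10 mg/kg, 1 at 1 mg/kg, 0 at 1 against 0.1 mg/kg and 0 at 10 against 1 mg/kg. Mrpl28 at 10 mg/kg turned to log2 -0.03 after quantile normalization. The cause of these moves was not tested. Shares over all genes are not given for the alternative settings, so counts under them do not set the members apart. Under the other settings the count of members that rose at 10 mg/kg ran between 31 (hybridisation controls) and 51 (array medians), and none fell on both scales in any comparison. The upward shift of the deposited values makes such falls harder to reach. Leaving out 1 array at a time gave 35 to 42 at 10 mg/kg, 12 to 17 at 1 mg/kg, 7 to 13 at 1 against 0.1 mg/kg, 17 to 28 at 10 against 1 mg/kg and 0 at 0.1 mg/kg. Without any 1 array 35 of the 38 kept their call at 10 mg/kg, and Mrpl19, Mrpl21 and Mrps12 lost it in at least 1 case, as did Mrpl23, Mrpl49 and Mrps5 at 1 mg/kg. At 1 against 0.1 mg/kg 5 of 11 calls held without any 1 array, and at 10 against 1 mg/kg 17 of 22. The groups share replicate numbers, and the deviations of same-numbered arrays correlated at r between -0.27 and 0.37 (60 pairs, median 0.04, against -0.01 for other pairs). Of the 60 pairs 17 were over 0.1, and 10 of 40 arrays correlated best with their own number, a hint from the data and not the design, so the numbers were not used as pairs. With the replicate number as a block 37 members rose at 10 mg/kg, 15 at 1 mg/kg, 12 at 1 against 0.1 mg/kg, 21 at 10 against 1 mg/kg and 0 at 0.1 mg/kg.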
